A study of Mus musculus with 31 samples.

Results

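The transcripts of 10 genes of interleukin and tumour necrosis factor signalling were examined in the brain of mice that carry, or do not carry, the P522R variant of phospholipase C gamma 2 (PLCγ2). They were taken by name from a table of 55401 genes and comprised 4 ligands (Il1a, Il1b, Tnf and Il18), the soluble antagonist Il1rn, and 5 receptor chains (Il6ra, Il6st, Il10ra, Il10rb and Il18rap). All 10 were found in the count tables. RNA-seq counts were available for 31 libraries of 13-month-old mice, 22 from CD11b+ microglia and 9 from temporo-occipital cortex. The CD11b+ libraries came from male A-/Pwt/wt (WT, n = 3) and male A-/Pki/ki mice (PLCγ2-P522R KI, homozygous for the variant and free of the transgene, n = 4), and from female A-/Pwt/wt (n = 7), A+/Pwt/wt (n = 4) and A+/Pki/ki mice (n = 4). The cortex libraries came from female A-/Pwt/wt (n = 1), A+/Pwt/wt (n = 4) and A+/Pki/ki mice (n = 4). A+ denotes the APP/PS1 transgene. It uses the prion promoter of the mouse to express an exon-deleted human presenilin 1 together with Swedish-mutant APP of mixed mouse and human sequence. The P522R variant was introduced by CRISPR/Cas9 into the endogenous gene and is therefore present in every cell, and both lines are on the C57Bl/6J background. The transgene-free KI mice were all male and the transgenic mice all female, and the CD11b+ count columns, but not those of cortex, carry a batch tag that differs between the males, the A+ females and the A- females. Sex, transgene and batch tag can therefore not be told apart in any comparison that crosses these sets. The CD11b+ libraries held 16229831 to 25118180 counts and the cortex libraries 25226544 to 43129427 counts.

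Interleukin-1α, interleukin-1β and TNF are released by activated microglia and act through receptors that switch on NF-κB, and Il1rn encodes the antagonist that occupies the interleukin-1 receptor without signalling. Interleukin-18 needs a receptor pair whose accessory chain is encoded by Il18rap. Il6ra encodes the binding chain of the interleukin-6 receptor and Il6st the shared signalling chain gp130, whereas Il10ra and Il10rb form the receptor of the anti-inflammatory cytokine interleukin-10.

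Il1a, Il1b and Tnf varied together between CD11b+ libraries (r of 0.83 to 0.88 within groups), so the sequences at their start sites are shown. RefSeq windows of 300 bases (GRCm38.p6, from 250 bases before to 50 bases after the start, read 5′ to 3′ on the strand of the gene, which is the minus strand for all of them) are at chr2:129309923-129310222 for Il1a, chr2:129371090-129371389 for Il1b and chr17:35201958-35202257 for Tnf. Windows were found for 8 of the 10 genes. Capitals mark matches on either strand to the TATA box (TATAAA), AP-1 (TGANTCA), the cyclic AMP response element (TGACGTCA), the core bound by the myeloid factor PU.1 (GAGGAAG) and the NF-κB consensus.
Il1a: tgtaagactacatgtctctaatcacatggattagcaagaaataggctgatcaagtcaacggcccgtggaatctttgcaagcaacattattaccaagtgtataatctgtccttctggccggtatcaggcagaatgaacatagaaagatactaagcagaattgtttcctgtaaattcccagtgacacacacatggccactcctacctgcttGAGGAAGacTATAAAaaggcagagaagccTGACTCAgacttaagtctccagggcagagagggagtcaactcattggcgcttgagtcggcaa
Il1b: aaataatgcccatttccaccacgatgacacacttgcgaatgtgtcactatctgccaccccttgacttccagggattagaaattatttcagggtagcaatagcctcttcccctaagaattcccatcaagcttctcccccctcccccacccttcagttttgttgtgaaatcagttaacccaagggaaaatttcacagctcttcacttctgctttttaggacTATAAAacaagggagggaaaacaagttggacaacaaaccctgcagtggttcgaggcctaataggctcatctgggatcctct
Tnf: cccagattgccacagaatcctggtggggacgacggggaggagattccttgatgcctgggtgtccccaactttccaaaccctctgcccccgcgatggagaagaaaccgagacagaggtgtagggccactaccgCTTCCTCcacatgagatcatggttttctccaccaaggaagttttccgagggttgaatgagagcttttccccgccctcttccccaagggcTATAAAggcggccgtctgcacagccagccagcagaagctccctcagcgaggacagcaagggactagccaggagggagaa
Each of the windows held TATAAA on the strand of the gene shortly before the start, at bases -32 to -27 in Il1a, -31 to -26 in Il1b and -29 to -24 in Tnf. TATAAA on either strand and at any position occurred in 13.6% of all 32851 promoter windows. This motif was added after the sequences were seen, so that share is no test of the windows shown. Among the other members it was found on the opposite strand in Il18 and in one of the windows of Il1rn, and TATAAA was not found in the windows of Il6ra, Il6st or Il18rap. Il1a also held an AP-1 match at -12 to -6, as did one of the windows of Il1rn at -141 to -135, a motif present in 7.81% of windows. A PU.1 core was matched in Il1a at -41 to -35 and, on the opposite strand, in Tnf at -118 to -112, and Il18rap held a pair of them, at -94 to -88 and -79 to -73, against 13.6% of windows. None of the 3 windows shown matched the NF-κB consensus (8.46% of windows) or the cyclic AMP response element (1.79%), which says only that these letters are not in the windows searched. The matches overlapped in no window, and they describe letters, not binding.

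Before the results, the labels were set against marker genes. Cst7, encoding cystatin F and known to be induced in microglia around amyloid plaques, was at 696 ± 135 CPM (counts relative to library size, scaled by TMM, SD, n = 4) in A+/Pwt/wt and 741 ± 193 CPM (n = 4) in A+/Pki/ki CD11b+ microglia, against 21.6 ± 8.2 CPM (n = 7) in A-/Pwt/wt females. No A- CD11b+ library, male or female, exceeded 31.7 CPM of Cst7, and no A+ CD11b+ library was below 545 CPM. Plcg2 itself was at 240 ± 0.441 CPM (n = 3) in WT males and 182 ± 28 CPM (n = 4) in KI males, and the groups did not overlap (log2 fold change -0.36, SE 0.11, adjusted p = 0.0581). Gene counts cannot show the P522R base change, so the KI label was not checked by sequence. All 10 microglia markers were higher in CD11b+ than in cortex libraries of A+ females (median log2 difference 4.87). App was at 3240 to 3950 CPM in the 8 A+ cortex libraries and 1900 CPM in the A- cortex library, whereas in CD11b+ libraries of A+ (540 to 1060 CPM) and A- females (630 to 995 CPM) it overlapped. The CD11b+ libraries also held transcripts of other cells. The summed level of 8 oligodendrocyte markers, led by Mbp, ranged from 7080 to 75700 CPM among them, and that of 10 neuron markers, led by Camk2a, from 176 to 4370 CPM, against group means of 13000 to 17700 CPM for the microglia markers. T and NK cell markers (group means of 3.16 to 6.21 CPM in sum) and B cell markers (6.69 to 11.8 CPM) were low. In bulk samples, fewer cells of a type and less RNA per cell cannot be told apart.

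Of the 10 genes, 7 had enough counts in cortex to be tested there, and all of these were higher in CD11b+ microglia than in cortex, over a wide span. In A+ females, 8 CD11b+ against 8 cortex libraries, the log2 difference was 7.85 (SE 0.37) for Il1b and 6.91 (SE 0.39) for Il1a. The receptor genes followed, with 5.06 (SE 0.13) for Il6ra, 4.97 (SE 0.18) for Il10ra, 3.66 (SE 0.08) for Il10rb and 2.29 (SE 0.14) for Il6st. Il18 differed least, by 0.55 (SE 0.09, 1.47-fold), still past the threshold (adjusted p = 2.12e-05, edgeR). These 7 passed a false discovery rate of 0.05, where 84.4% of the 19942 genes tested did so and 40.6% in the direction of CD11b+. Tnf, Il1rn and Il18rap entered this fit through their CD11b+ counts alone, so they are given by their levels and without a fold change. Tnf was at 50.5 to 364 CPM in the CD11b+ and 0 to 0.22 CPM in the cortex libraries of A+ females. Il1rn was at 2.75 to 4.75 CPM against 0.0287 to 0.22 CPM, on 1 to 8 counts per cortex library, and Il18rap at 1.55 to 9.52 CPM against 0.048 to 0.361 CPM, on 2 to 10 counts. The tissues were prepared differently, CD11b+ cells by enzymatic digestion of the brain and magnetic selection and cortex by direct RNA extraction. The 10 immediate early genes were also all higher in CD11b+ libraries (median log2 difference 4.41), and the part of digestion in the ligand values was not tested.

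Expressed per kilobase of exon, to set genes side by side, the members fell into tiers in CD11b+ microglia (means of 22 libraries). The length is that of all annotated exons of a gene joined, used or not, so the tiers depend partly on the annotation. Il10ra was the most abundant at 95.7 CPM per kb, followed by Il1a at 55.4 and Tnf at 50.9. Il6ra (30.2), Il1b (27.7), Il6st (26.5), Il10rb (22.0) and Il18 (18.8) formed a middle range, and Il1rn and Il18rap were rare, both at 0.492 CPM per kb. The order held for the pooled mean and not in every group. In A+/Pki/ki females Tnf (109) and Il1a (106) were above Il10ra (98.6 CPM per kb), and Tnf was below Il6ra in both groups of males (23.6 against 31.5 CPM per kb in KI and 41.1 against 43.5 CPM per kb in WT males). In A+ cortex (means of 8 libraries) the order was another: Il18 came first at 15.6 CPM per kb and Il6st second at 7.82, ahead of Il10ra at 3.26 and Il10rb at 2.12, and Tnf was at 0.0453. Tnf was close to the limit of counting in cortex. Its counts were 0, 0, 2 and 5 in the 4 A+/Pki/ki libraries and 0, 1, 5 and 8 in the 4 A+/Pwt/wt libraries, and 0 in the A-/Pwt/wt library, where a count of 0 allows up to 0.0706 CPM (3 counts per library, covering counting error only). Il1b in cortex rested on 10 to 17 counts per library and Il1a on 23 to 68. Reads were counted without regard to strand, so that exons shared with a gene on the other strand (Il1a with Gm14023, Il1b with Il1bos and Il6ra with Gm42809) cannot be told apart, and Il10rb shares exon sequence with Gm21970 on its own strand.

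**Figure D1:**
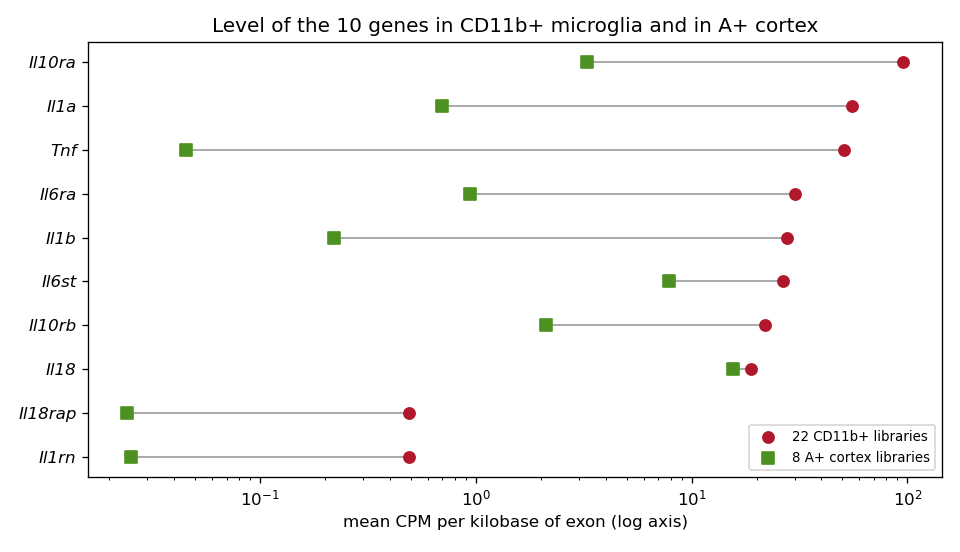
Mean level per kilobase of exon (CPM per kb, log axis) of the 10 genes in 22 CD11b+ libraries (circles) and 8 A+ cortex libraries (squares). Il18 shows the narrowest gap (18.8 against 15.6). Tnf was at 50.9 against 0.0453, but its cortex value is close to the limit of counting, so the size of its gap is uncertain. The CD11b+ libraries include males and A- mice, the cortex libraries only A+ females.

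The ligands Il1a, Il1b and Tnf were then compared between KI and WT males, the comparison that asks what the P522R variant does without amyloid. All of them were lower in KI microglia on average, but only Il1a passed the test. Il1a, encoding interleukin-1α (chr2:129299610-129309972, GRCm38), was at 56.9, 64.1, 65.1 and 80.9 CPM in the 4 KI males and 89.8, 96.2 and 125 CPM in the 3 WT males. Every KI library lay below every WT library, and the log2 fold change was -0.6 (SE 0.14, adjusted p = 0.024, edgeR). Il1b, the secreted interleukin-1β (chr2:129364570-129371139), was at 18.8, 20.9, 21.7 and 22.3 CPM in KI males and 21.5, 28.7 and 56.8 CPM in WT males. The KI values lay within a narrow band and the WT values were spread, with mouse 101 far above the others, so that the groups overlapped (log2 fold change -0.73, SE 0.28, adjusted p = 0.1). Tnf (chr17:35199381-35202007) was at 33.7, 35.1, 35.4 and 50.6 CPM in KI males against 34.5, 71.6 and 96.2 CPM in WT males, again with overlap (log2 fold change -0.76, SE 0.29, adjusted p = 0.102). Without WT mouse 101, the highest in both genes, the log2 fold change was -0.19 for Il1b and -0.38 for Tnf. The call of Il1a depended on single libraries. It was kept without KI mouse 104 (adjusted p = 0.00417) and lost in the other 6 of 7 fits that each left out one mouse (adjusted p up to 0.151), with a log2 fold change between -0.69 and -0.4 throughout. Without KI mouse 104, Tnf, Il1rn and Il10ra were called as well, and without WT mouse 102 Tnf alone was. Over all genes, 5439 of 16242 were called without KI mouse 104 and 894 of 16193 without WT mouse 102. The full fit called 2685 of 16373. With no filter on low counts, where 30652 genes were tested, Il1b (adjusted p = 0.0136) and Tnf (adjusted p = 0.0094) also passed in edgeR. The number of all genes called in that fit is not given here, so these calls cannot be set against it.

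Il18 and Il1rn did not pass the test between KI and WT males. Il18 was at 14.2, 15.5, 16.4 and 20.2 CPM against 15.6, 19.2 and 19.5 CPM, and the groups overlapped (log2 fold change -0.09, SE 0.15). The antagonist Il1rn, counted 13 to 49 times per library, was at 0.741, 0.843, 0.949 and 2.26 CPM in KI and 2.05, 2.30 and 2.32 CPM in WT males. KI mouse 104 lay among the WT values and the other KI mice well below them (log2 fold change -0.87, SE 0.39, adjusted p = 0.154).

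The receptor genes showed smaller differences, again on the low side in KI males. Il6ra (chr3:89864059-89913196) was at 205, 222, 303 and 359 CPM in KI and 365, 370 and 393 CPM in WT males. The groups did not overlap, but the highest KI value almost reached the lowest WT value (log2 fold change -0.43, SE 0.17, adjusted p = 0.109). Il6st was at 219, 250, 273 and 273 CPM against 295, 313 and 323 CPM, without overlap (log2 fold change -0.25, SE 0.11, adjusted p = 0.159). Il10ra (chr9:45253837-45269149) was at 236, 238, 350 and 374 CPM against 391, 407 and 435 CPM, also without overlap (log2 fold change -0.42, SE 0.16, adjusted p = 0.108). Il10rb (-0.09, SE 0.11) and Il18rap (-0.3, SE 0.43) overlapped between the groups. In all, 10 of the 10 log2 fold changes were below 0, 4 genes had no overlap and 1 was called. Over all 16373 genes tested, 50.2% were below 0, 31.5% had no overlap between the groups, 17.2% had none and were lower in KI, and 16.4% (2685) were called, 5.26% as lower. The median of the 10 was -0.43, against -0.001 over all genes.

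The KI male libraries also held more transcripts of other cell types. All 10 neuron markers were called higher (median log2 fold change 2.12), their sum being 627, 811, 1170 and 1360 CPM in KI and 194, 194 and 282 CPM in WT males. All 8 astrocyte markers (median 1.14) and 5 of 8 oligodendrocyte markers (median 1.06) were called higher, as were 3 of 10 endothelial and mural markers. The 10 microglia markers were all below 0, with a median of -0.4, and 1 was called lower. Mitochondrial transcripts made up 7.4 to 12.8% of the counts in KI and 3.97 to 5.02% in WT males, without overlap. When the libraries were scaled to the summed counts of 16 microglia reference genes instead of TMM, the median of all genes shifted to 0.359. On that scale 6 members were below 0 and 4 above, none was called, and Il1a had a log2 fold change of -0.26 (adjusted p = 0.391). The 4 above 0 were Il18 (0.25), Il10rb (0.25), Il6st (0.15) and Il18rap (0.13). Such a scaling shifts all genes nearly alike, so it cannot test the place of the members relative to the median of all genes. The part of cell composition and of the mitochondrial share in the differences was not tested further.

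Around the members, the wider pathways were described from 6 lists of 116 genes. In KI and WT males, 23 interleukin-1 and interleukin-18, 19 TNF, 16 NF-κB, 17 gp130, 9 interleukin-10 family and 19 other cytokine receptor genes had enough counts to be tested. Of them, 14 were called lower in KI males and 4 higher, where 5.26% of all genes were called lower and 16.4% in either direction. Tnfaip3, encoding the NF-κB brake A20, was lower by a log2 fold change of -0.91 (SE 0.19, adjusted p = 0.0133), Zfp36, whose protein destabilises cytokine mRNAs such as that of Tnf, by -0.64 (SE 0.19) and Il1rl2, the interleukin-36 receptor, by -0.59 (SE 0.11). Csf2rb and Csf3r, receptors of colony-stimulating factors, changed by -0.7 (SE 0.14) and -0.68 (SE 0.16), and Clcf1, a ligand of the gp130 family, by -0.63 (SE 0.12). The higher genes were Cntfr (1.37, SE 0.18), Il33 (1.14, SE 0.27), Sigirr (0.76, SE 0.21) and Ptpn11 (0.7, SE 0.2). Cntfr and Il33 were higher in cortex than in CD11b+ libraries of A+ females, with log2 differences of -2.39 (SE 0.38) and -1.09 (SE 0.35), whereas Sigirr (3.01, SE 0.29) and Ptpn11 (1.06, SE 0.23) were higher in CD11b+ libraries. All 16 NF-κB components and targets were below 0 in KI males, 3 of them called (median -0.27), and so were all 19 tested genes of the list of other cytokine receptors, 3 of them called (median -0.39). The lists of the interleukin-1 and interleukin-18, TNF, gp130 and interleukin-10 family pathways had medians of -0.19, -0.19, -0.23 and -0.19. Border macrophage markers (7 tested, median -0.1), monocyte markers (5, 0.28) and neutrophil markers (10, 0.63) gave no call. Of the 10 immediate early genes, which report recent activation of a cell, 9 were below 0 and 1 was called lower (median -0.53). The cells came from digested tissue, and the part of digestion in these values was not tested.

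**Figure D2:**
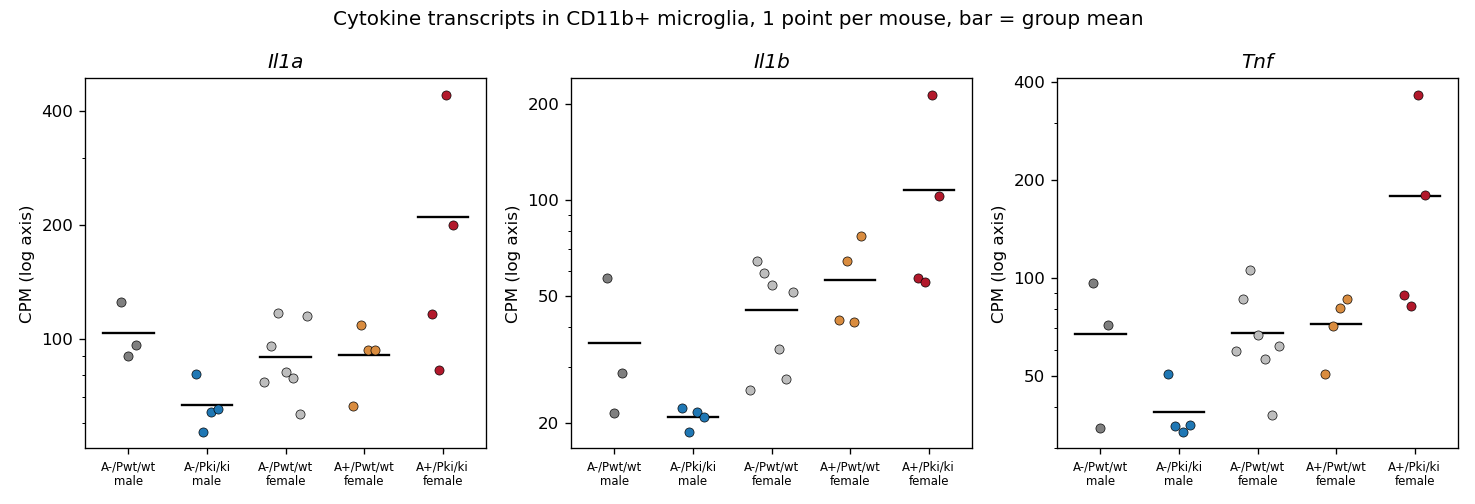
CPM (log axis) of Il1a, Il1b and Tnf in the 22 CD11b+ libraries by group, 1 point per mouse, with the group mean as a bar. One A+/Pki/ki mouse lies above all others for each gene (439, 213 and 364 CPM), and the KI males form the lowest group.

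In APP/PS1 females all 10 genes were higher on average in A+/Pki/ki than in A+/Pwt/wt CD11b+ microglia, and none passed the test. Tnf was at 82.1, 88.4, 180 and 364 CPM in the 4 A+/Pki/ki mice and 50.5, 71.0, 80.7 and 86.3 CPM in the 4 A+/Pwt/wt mice. A pair of A+/Pki/ki mice, 394 and 405, lay clear of the A+/Pwt/wt range and the other pair at its upper edge (log2 fold change 1.24, SE 0.46, adjusted p = 0.853). Il1a was at 82.6, 116, 199 and 439 CPM against 66.4, 93.3, 93.4 and 109 CPM, with 1 of the A+/Pki/ki mice inside the A+/Pwt/wt range (log2 fold change 1.15, SE 0.47). Il1b was at 55.3, 57.1, 103 and 213 CPM against 41.6, 42.2, 64.5 and 77 CPM, with 2 of them inside (log2 fold change 0.87, SE 0.44). Without mouse 394 the log2 fold changes were 0.63 for Tnf, 0.49 for Il1a and 0.29 for Il1b. No gene of the 17039 tested passed a false discovery rate of 0.05 (0%) by edgeR, whereas 575 (3.37%) had an unadjusted p under 0.05 and the DESeq2 Wald test called 7, none of them a member. Of all genes, 50.7% were above 0, and the median of the 10 was 0.35, against 0.004 over all genes. That median of the 10 was 0.21 without mouse 394 and 0.49 without mouse 335.

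The one member whose groups were separate was Il18rap, the accessory chain of the interleukin-18 receptor (chr1:40515362-40551705). It was at 5.2, 6.44, 8.58 and 9.52 CPM in A+/Pki/ki mice and 1.55, 2.78, 3.48 and 3.70 CPM in A+/Pwt/wt mice. Every A+/Pki/ki library was above every A+/Pwt/wt library, a separation shown by 2.81% of all genes (2.09% in this direction), and the log2 fold change was 1.31 (SE 0.31, 2.48-fold). By its unadjusted p of 0.00256 it stood at rank 8 of all genes, but its adjusted p was 0.853. The values rested on 116 to 249 counts per library in A+/Pki/ki and 34 to 76 in A+/Pwt/wt. The log2 fold change stayed between 1.1 and 1.48 when any one mouse was left out. Il18r1, the binding chain of the same receptor, was at 0.498 ± 0.128 CPM (SD, n = 4) in A+/Pki/ki and 0.267 ± 0.12 CPM (n = 4) in A+/Pwt/wt microglia, with overlap (log2 fold change 0.83, SE 0.45).

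The remaining receptor genes, Il18 and the antagonist overlapped between the groups. Il6st was at 230, 419, 430 and 451 CPM in A+/Pki/ki and 220, 349, 359 and 370 CPM in A+/Pwt/wt microglia, with 1 low mouse in each group (log2 fold change 0.17, SE 0.24). Il10ra was at 199, 299, 374 and 507 CPM against 207, 225, 253 and 334 CPM (log2 fold change 0.38, SE 0.27). For Il6ra (0.16, SE 0.19), Il10rb (0.09, SE 0.1), Il18 (0.22, SE 0.17) and Il1rn (0.32, SE 0.19) the ranges overlapped as well, and none was called. Of these, Il6ra, Il6st and Il10rb came to lie below 0 when scaled to the microglia reference genes (-0.02, -0.02 and -0.09), a scaling that moved the median of all genes to -0.168. Leaving out a single mouse gave 0.13 to 0.59 for Il10ra and 0.06 to 0.3 for Il18, both lowest without mouse 394. It gave 0.06 to 0.33 for Il6ra and 0.03 to 0.37 for Il6st, both lowest without A+/Pwt/wt mouse 331.

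The A+/Pki/ki libraries differed among themselves in more than cytokines. The 10 immediate early genes, led by Jun, summed to 5480, 4250, 17500 and 9610 CPM in mice 244, 335, 394 and 405, against 3940 to 5720 CPM in A+/Pwt/wt mice. The mice with the most Il1a, Il1b and Tnf, 394 and 405, were also those with the most immediate early transcripts. All 10 immediate early genes had a log2 fold change above 0 (median 0.88), and 5 had an unadjusted p under 0.05 (edgeR). No gene at all was called in this fit, so the lack of calls says nothing about single lists. The 10 neutrophil markers, led by S100a9, ran otherwise, with sums of 505, 1920, 39.9 and 235 CPM in the same 4 mice and 46.4 to 142 CPM in A+/Pwt/wt mice. Mouse 394, highest in the 3 cytokines, was thus the lowest of the 8 in neutrophil markers, and mouse 335, lowest of its group in the 3 cytokines, the highest. The mitochondrial share of the counts was 7.54, 19.4, 3.77 and 3.45% in the same 4 mice and 9 to 16.7% in A+/Pwt/wt mice, so that the mice with the most cytokine transcripts had the lowest share and mouse 335 the highest. All 10 neutrophil markers were above 0 (median 2.54), and none was at 0 counts in any A+/Pki/ki library. Of these markers, 9 had an unadjusted p under 0.05 (edgeR), where 3.37% of all genes did. The 10 neuron markers were all below 0 (median -0.84), as were the 8 astrocyte (median -0.67), 8 oligodendrocyte (-0.28) and 10 endothelial and mural markers (-0.48), whereas the 10 microglia markers were all above 0 (0.22). Of the pathway lists, 15 of 16 NF-κB genes (median 0.28) and 9 of 9 genes of the interleukin-10 family (0.26) were above 0, with no gene of any of the 6 lists called. The part of cell composition, of the mitochondrial share and of the digestion in these results was not tested.

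**Figure D3:**
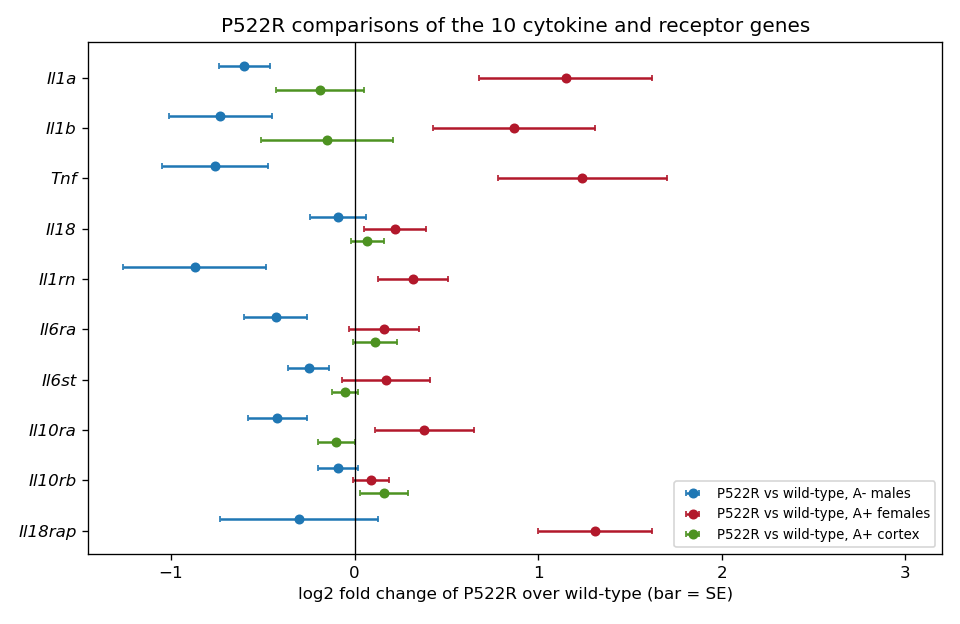
Log2 fold change of P522R over wild-type with its standard error for the 10 genes in transgene-free males, in APP/PS1 female CD11b+ microglia and, for the 7 genes tested, in APP/PS1 cortex. The male values lie below 0, the CD11b+ female values above 0 and the cortex values within 0.19 of 0.

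Whether the variant's difference itself changed between the settings was tested as the KI difference of the males minus that of the APP/PS1 females. All 10 values were below 0, against 49% of 17619 genes, with -1.97 (SE 0.61) for Tnf, -1.71 (SE 0.55) for Il1a, -1.58 (SE 0.54) for Il18rap and -1.57 (SE 0.58) for Il1b. None passed (adjusted p = 0.143 for Tnf, Il1a and Il18rap and 0.145 for Il1b, edgeR), nor did any other gene (0%), although 26.5% of genes had an unadjusted p under 0.05. DESeq2 called 1185 genes and 3 members, Il1a, Tnf and Il1rn. Without A+/Pki/ki mouse 394 the values were -1.36 for Tnf, -1.06 for Il1a and -0.99 for Il1b. Scaled to microglia reference genes, 7 members were below 0 and 3 above, namely Il18 (0.23), Il6st (0.17) and Il10rb (0.34). That scaling moved the median of all genes to 0.518. Single libraries also set the number of calls. A+/Pki/ki mouse 335 held the most neuron and neutrophil transcripts of its group. Without it edgeR called 6199 of 17495 genes and 8 of the members, all but Il18 and Il10rb. Without KI male 104 it called 3 of 17589 genes and no member. Neuron markers again moved with the contrast (10 of 10 above 0, median 2.98), as did immediate early genes (10 of 10 below 0, median -1.38).

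In cortex of APP/PS1 females the P522R variant gave no detectable difference in these genes. Il1a was at 1.15, 1.21, 1.24 and 1.54 CPM in A+/Pki/ki and 1.08, 1.22, 1.72 and 1.87 CPM in A+/Pwt/wt cortex, ranges that largely coincide. Il10ra was at 11 ± 0.839 CPM (SD, n = 4) against 11.8 ± 0.928 CPM (n = 4), and Il18 at 16.5 ± 1.28 CPM against 15.7 ± 0.732 CPM. The largest log2 fold change in size among the 7 genes tested was -0.19 (SE 0.24) for Il1a, and every adjusted p was 1. Tnf, Il1rn and Il18rap had too few counts for the test. None of 18640 genes was called by edgeR (0%), with 514 (2.76%) at an unadjusted p under 0.05 and 11 called by DESeq2. The single A-/Pwt/wt cortex library allowed no test of the transgene. It held Il1a at 0.549 CPM and Il10ra at 5.99 CPM, below all 8 A+ cortex libraries for both genes, and Il18 at 15.8 CPM, within their range.

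The transgene was compared in CD11b+ microglia with wild-type PLCγ2, 4 A+/Pwt/wt against 7 A-/Pwt/wt females, and none of the members passed the test. Tnf was at 50.5 to 86.3 CPM in A+/Pwt/wt and at 37.8 (lowest), 61.6 (median) and 106 CPM (highest) in A-/Pwt/wt mice, ranges that overlap fully. Il1a had a log2 fold change of 0.03 (SE 0.19), Tnf of 0.11 (SE 0.24) and Il1b of 0.34 (SE 0.28). The members farthest from 0 were Il10ra (-0.49, SE 0.18, adjusted p = 0.301), at 207 to 334 CPM against a median of 379 CPM and a range of 242 to 432 CPM, and Il6st (0.43, SE 0.2, adjusted p = 0.499). None of the 10 was called, where 1.29% of 17355 genes (224) were, and 1 member had an unadjusted p under 0.05, where 10.1% of genes did. By the DESeq2 Wald test no member was called either. Cst7, by contrast, differed by a log2 fold change of 5.02 (SE 0.3, adjusted p = 2.84e-06) in the same fit. All 10 immediate early genes (median -0.8) and all 10 neutrophil markers (median -1.23) had log2 fold changes below 0, none called, and 2 of 7 border macrophage markers were called lower (median -1.01).

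With both the transgene and the variant, A+/Pki/ki against the same 7 A-/Pwt/wt libraries, 8 of the 10 members were above 0 (48.4% of all genes) and Il18rap rose. Scaled to microglia reference genes, 6 members were above 0, and Il18 (-0.27) and Il10rb (-0.22) had turned below it. The members above 0 numbered 7 without mouse 394 and 6 without A-/Pwt/wt mouse 223. In the A-/Pwt/wt mice Il18rap was at 1.02 (lowest), 1.93 (median) and 4.13 CPM (highest), all below the lowest A+/Pki/ki value of 5.2 CPM. The log2 fold change was 1.76 (SE 0.38, 3.4-fold, adjusted p = 0.0406, edgeR). It was the one member called and the one without overlap, where 1.64% of 17446 genes (286) were called and 3.73% did not overlap. The call was lost in 7 of 11 fits that each left out one mouse (A-/Pwt/wt mice 224, 225, 236 and 243 and A+/Pki/ki mice 244, 394 and 405), with log2 fold changes of 1.62 to 2 throughout and adjusted p up to 0.172, and under scaling to microglia reference genes (1.51, adjusted p = 0.0873). Tnf (1.4, SE 0.38, adjusted p = 0.0955), Il1b (1.25, SE 0.38, adjusted p = 0.139) and Il1a (1.22, SE 0.36, adjusted p = 0.133) did not pass, nor did Il6st (0.65, SE 0.22, adjusted p = 0.173). Without mouse 394 they were at 0.79, 0.67 and 0.57 for the 3 cytokines. Without mouse 335 edgeR called 5 members in place of 1, and 1097 of 17287 genes in place of 286. DESeq2 called 4 members, Il18rap, Tnf, Il1a and Il1b, and 955 of the 17446 genes. Of the pathway lists, 1 gene was called, Il3ra, the binding chain of the interleukin-3 receptor (1.25, SE 0.23, adjusted p = 0.0229). Other cells' markers moved in this comparison too. All 10 neuron (median -0.84), 10 endothelial and mural (-0.64) and 8 oligodendrocyte markers (-0.55) were below 0, none called, as were all 7 border macrophage markers (-0.81, 1 called lower), and all 10 neutrophil markers were above 0 (1.37, none called). Their part in the result was not tested. Since the A-/Pwt/wt libraries serve both comparisons with A- females, the values of the preceding paragraph and these are not independent, and batch tag and genotype cannot be told apart in either.

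**Figure D4:**
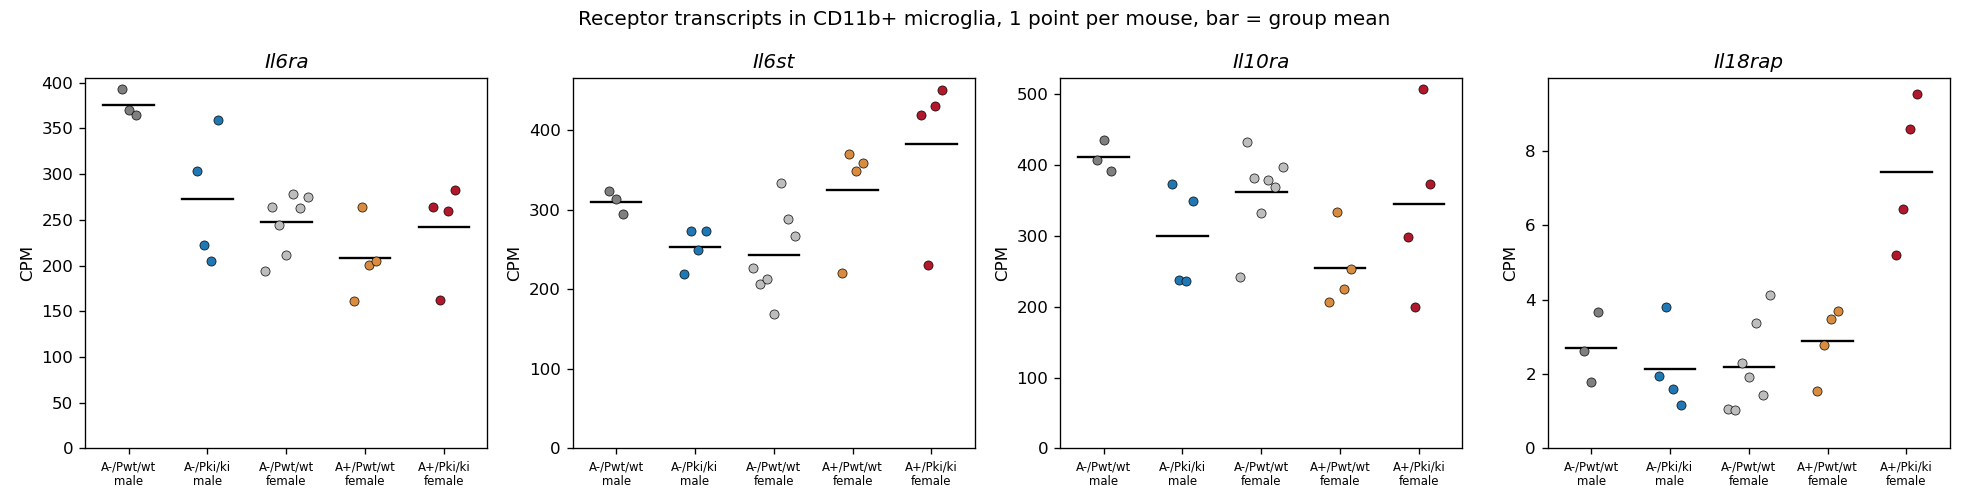
CPM of Il6ra, Il6st, Il10ra and Il18rap in the 22 CD11b+ libraries by group (linear axis from 0), 1 point per mouse, with the group mean as a bar. The 4 A+/Pki/ki values of Il18rap (5.2 to 9.52 CPM) lie above all 18 others, and Il6ra is highest in WT males.

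Ordered by group mean, the members did not share a single pattern. Il1b and Tnf ran from A+/Pki/ki (107 and 179 CPM) through A+/Pwt/wt (56.3 and 72.1 CPM) and A-/Pwt/wt females (45.1 and 67.8 CPM) to WT males (35.7 and 67.4 CPM) and KI males (20.9 and 38.7 CPM), each group overlapping with the next. Il1a was highest in A+/Pki/ki females (209 ± 161 CPM, SD, n = 4) and lowest in KI males (66.8 ± 10.1 CPM, n = 4), also with overlap between all neighbours. Il6ra and Il10ra were instead highest in WT males, at 376 ± 14.7 and 411 ± 22.2 CPM (n = 3), and lowest in A+/Pwt/wt females, at 208 ± 42.6 and 255 ± 56.3 CPM (n = 4). For Il6ra the WT males stood apart from the next group, and for Il6st, highest in A+/Pki/ki females (382 ± 103 CPM), the WT males stood apart from the KI males below them. Il10rb, with group means from 77.2 to 88.9 CPM, and Il18, from 16.6 to 21.6 CPM, were the steadiest. Across all 22 libraries the highest value was 1.76 times the lowest for Il10rb and 2.01 times for Il18, but 7.71 times for Il1a, 10.8 times for Tnf and 11.3 times for Il1b.

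The antagonist and the direct partners of the members ranged from rare to abundant. Il1rn was at 4.31 ± 0.474 CPM (SD, n = 4) in A+/Pki/ki, 3.32 ± 0.638 CPM (n = 4) in A+/Pwt/wt and 2.56 ± 1.82 CPM (n = 7) in A-/Pwt/wt females, with overlap throughout. Il6 and Il10, the ligands of the interleukin-6 and interleukin-10 receptors, had group means of at most 5.78 and 1.08 CPM in CD11b+ microglia. The TNF receptors Tnfrsf1a (124 to 157 CPM as group means) and Tnfrsf1b (145 to 260 CPM) were abundant. Tnfrsf1b was lower in KI than WT males without overlap (-0.44, SE 0.17, adjusted p = 0.104). Il1r1, the signalling interleukin-1 receptor, was at group means of 14.9 to 19.2 CPM, the decoy receptor Il1r2 at 0.741 to 1.69 CPM, and Il1rap, the accessory chain, at 9.19 to 10.1 CPM. Il1rap was the exception in tissue, being higher in cortex (log2 difference -1.23, SE 0.08). Casp1, the protease that matures interleukin-1β and interleukin-18, was at 25 to 35.9 CPM, and Il18bp, the secreted inhibitor of interleukin-18, at 3.97 to 6.56 CPM. None of these 10 partners was called in the 6 comparisons within a tissue, where it had enough counts to be tested.

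Pathway genes were also set against cortex, in the same CD11b+ and cortex libraries of A+ females. Among those with enough counts to be tested in cortex and a mean of at least 1 CPM, Zfp36 differed most, by 8.24 (SE 0.29), followed by Osm, the gp130 ligand oncostatin M (6.98, SE 0.32), the NF-κB target Nfkbiz (5.91, SE 0.38) and Socs3, the feedback inhibitor of gp130 signalling (5.65, SE 0.35). Clcf1 followed (5.23, SE 0.28). Besides Cntfr, Il33 and Il1rap, given above, the genes of this kind called lower in CD11b+ libraries were Ctf1 (-0.94, SE 0.31), Tollip (-0.69, SE 0.05) and Tab3 (-0.31, SE 0.11). All 16 NF-κB components and targets were called higher, as were 18 of 19 tested TNF pathway genes and 19 of 20 other cytokine receptors, against 40.6% of all genes. App, Zfp36, Clcf1, Il1rap, Il18bp, Ctf1, Csf2rb, Il3ra, Jun and Junb share exon sequence with another annotated gene, which this counting may not separate.

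Within groups, Il1a, Il1b and Tnf varied together, whereas the receptor genes formed no single set. After subtracting each group mean from log2 CPM, Il1a and Tnf correlated at r = 0.88 over the 22 CD11b+ libraries, Il1b and Tnf at 0.87 and Il1a and Il1b at 0.83, and without mouse 394 at 0.8, 0.79 and 0.74. These are descriptions over libraries that share depth and cell composition. Il6ra and Il10ra correlated at 0.85, Il10ra and Il10rb at 0.71 and Il6ra and Il6st at 0.66, but Il6st and Il10rb at 0.02. Il10ra also ran with Il1a (0.76), Il1b (0.65) and Tnf (0.56, without mouse 394 0.67, 0.5 and 0.36), whereas Il18rap reached at most 0.32 and Il1rn at most 0.23 with the 3 cytokines. The mean log2 CPM of the 10 immediate early genes followed Il1b (r = 0.88), Il1a (0.87) and Tnf (0.81, without mouse 394 0.83, 0.78 and 0.73) most, then Il10ra (0.74, without mouse 394 0.66), Il18 (0.52 and 0.31), Il6ra (0.46 and 0.49) and Il10rb (0.38 and 0.39). The values were lower for Il6st (0.21), Il18rap (0.04) and Il1rn (0.03). The microglia markers followed Il10ra (0.87) and Il6ra (0.85) most, and the neuron markers ran against both (-0.79 and -0.79). The neutrophil markers ran against Il1a (-0.58), Il1b (-0.33) and Tnf (-0.34), but without mouse 394 these values were -0.35, -0.08 and -0.07, and for Il18rap the value was 0.13 (0.22 without mouse 394). The gene most like Il1a in this measure, among 11340 genes, was Tnfaip3 (0.95), that most like Il1b the immediate early gene Junb (0.92) and that most like Tnf the stress-response gene Gadd45b (0.94). For the receptors these genes were Ankle2 for Il6ra (0.95), Zmiz1 for Il6st (0.97), Crlf3 for Il10ra (0.95), Clic1 for Il10rb (0.93) and Rsad1 for Il18rap (0.82), and for Il18 and Il1rn they were Haus7 (0.87) and Psmb9 (0.89).

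**Figure D5:**
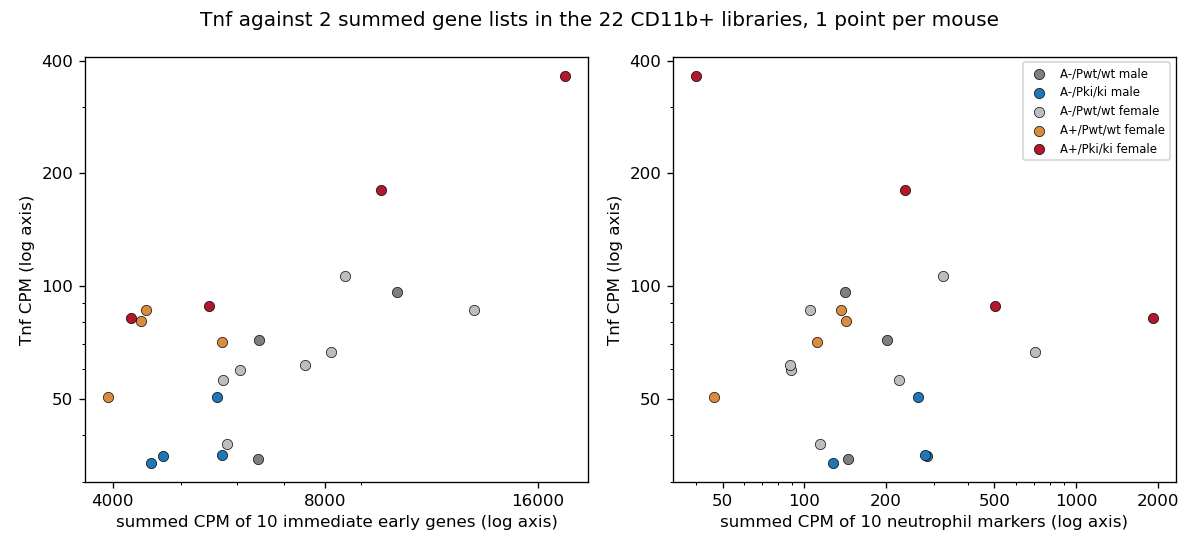
Tnf (CPM, log axis) against the summed CPM (log axis) of 10 immediate early genes (left) and of 10 neutrophil markers (right) in the 22 CD11b+ libraries, 1 point per mouse, coloured by group. The mouse with the most Tnf (364 CPM) has the most immediate early transcripts (17500 CPM) and the fewest neutrophil marker transcripts (39.9 CPM).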

How the data were processed

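RNA-seq of poly(A) RNA was analysed from 31 libraries. Number 236 names a CD11b+ A-/Pwt/wt and a cortex A+/Pwt/wt library, taken as different mice because the genotypes differ. Per the labels and methods of the study, CD11b+ cells were isolated with magnetic beads after enzymatic digestion and cortex RNA was extracted directly. The deposited values are raw gene counts, which the authors made with FastQC 0.11.7, Trimmomatic 0.39, STAR 2.7.9a and featureCounts 2.12.0 according to the submitters' processing notes (GRCm38, uniquely mapped reads, unstranded). Deposited normalized tables were not used here. Counts were tested with edgeR 4.0.16 (quasi-likelihood, TMM, R 4.3.3) in 7 comparisons, keeping a gene when 3 or more fitted libraries reached 10 counts, and p-values were adjusted by Benjamini-Hochberg over all genes tested (threshold 0.05). Levels are CPM with TMM scaling over the 22 CD11b+ and, separately, the 9 cortex libraries. Correlations used log2 CPM (prior count 2) after subtracting group means. The difference between KI effects was a contrast in a single fit of the 4 groups concerned. Alternatives were DESeq2 1.42.0 (Wald test and size factors), no filter, scaling to microglia reference genes, a fit of all female groups of a tissue, and leaving out each mouse. No libraries were identical, and 0 columns belonged to another series.

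The 10 genes, 6 pathway lists and 11 marker lists were chosen with earlier results of these data known. Beyond the 10 genes, the text names genes used as label checks, direct partners of the members, up to 6 called pathway genes per direction with the largest log2 fold change and a mean of at least 1 CPM, the gene most correlated with each member (mean of at least 5 CPM), and the most abundant gene of a marker list. The TATA motif was added after the sequences were seen. Intervals of depth cover counting error only.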

Additional observations from a re-analysis of the deposited data

Results flagged for a closer look

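In 7 of 60 gene and group pairs, a single mouse stood apart from the rest of its group by Dixon's criterion, which chance alone would give in about 1 of 20 groups. KI male 104 was high for Tnf (50.6 CPM, the others 33.7 to 35.4 CPM) and for Il1rn (2.26 CPM, the others 0.741 to 0.949 CPM). A+/Pki/ki mouse 394 was high for Il18 (28.6 CPM, the others 18.7 to 19.6 CPM), and A+/Pki/ki mouse 335 was low for Il6st (230 CPM, the others 419 to 451 CPM). A+/Pwt/wt mouse 331 was low for Il6st (220 CPM, the others 349 to 370 CPM), and A-/Pwt/wt female 223 was low for Il10rb (58 CPM, the others 83.5 to 102 CPM). In cortex, A+/Pki/ki mouse 184 was high for Il1b (0.583 CPM, the others 0.316 to 0.36 CPM).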

How the results depend on the processing

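With DESeq2 size factors in place of TMM no member changed its direction or call. The DESeq2 Wald test called 7 genes in A+/Pki/ki against A+/Pwt/wt CD11b+ microglia, 11 in cortex, 623 in A+/Pwt/wt against A-/Pwt/wt, 955 (4 members) in A+/Pki/ki against A-/Pwt/wt, and 1185 (3 members) for the difference of KI effects. Without a filter, 3 members were called in males, where 30652 genes were tested, and 40 of 34347 genes in cortex. The number of all genes called in that male fit is not given here, so the 3 members cannot be set against it. Scaling to microglia reference genes moved the median of all genes to 0.359 in males, -0.168 in A+/Pki/ki against A+/Pwt/wt, -0.126 in A+/Pwt/wt against A-/Pwt/wt, -0.308 in A+/Pki/ki against A-/Pwt/wt and 0.518 for the difference of effects. It left 1629 genes and 0 members called in males and 118 genes and 0 members in A+/Pki/ki against A-/Pwt/wt. It turned the sign in males of Il18 (0.25), Il6st (0.15), Il10rb (0.25) and Il18rap (0.13), in A+/Pki/ki against A+/Pwt/wt of Il6ra (-0.02), Il6st (-0.02) and Il10rb (-0.09), in A+/Pwt/wt against A-/Pwt/wt of Il1a (-0.07), in A+/Pki/ki against A-/Pwt/wt of Il18 (-0.27) and Il10rb (-0.22), and for the difference of effects of Il18 (0.23), Il6st (0.17) and Il10rb (0.34). A fit of all female groups called 510 genes and 2 members (Il18rap and Tnf) in A+/Pki/ki against A-/Pwt/wt. The cause of these changes was not tested. Leaving out one mouse gave 894 (without WT 102) to 5439 (without KI 104) genes and 0 to 4 members in males, 0 to 1 genes in A+/Pki/ki against A+/Pwt/wt microglia, 0 to 2 in cortex, 91 to 497 in A+/Pwt/wt against A-/Pwt/wt, 57 to 1097 (without A+/Pki/ki 335) genes and 0 to 5 members in A+/Pki/ki against A-/Pwt/wt, and 0 to 6199 genes and 0 to 8 members for the difference of effects. Log2 fold changes that crossed 0 when a mouse was left out were those of Il18rap in males (-0.76 to 0.02), Il1b in cortex (-0.36 to 0.09), Il1a (-0.07 to 0.14) and Tnf (0 to 0.25) in A+/Pwt/wt against A-/Pwt/wt, and Il18 (-0.15 to 0.07), Il6ra (-0.11 to 0.11), Il10ra (-0.31 to 0.11) and Il10rb (-0.01 to 0.1) in A+/Pki/ki against A-/Pwt/wt. In CD11b+ against cortex the 7 members with enough counts in both tissues kept their call in the 16 fits that left out one library. No paired analysis was possible because the groups compared share fewer than 2 mouse numbers. Depth limited Tnf, Il1rn and Il18rap in cortex.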
